A study of Mus musculus with 6 samples.

Results

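miR-872 is a microRNA (miRNA) that was followed here as the products of both arms of its hairpin, miR-872-5p and miR-872-3p, in extracellular vesicles from mouse brain. These are 2 of the 1926 miRNAs listed by the authors and 2 of the 775 with a read in at least 1 library. The tissue label of every library is brain-derived extracellular vesicles, membrane-bound particles that cells release. There were 3 libraries from mice after status epilepticus, a prolonged seizure (SE), and 3 from matched control mice (CON), with 24 hr named in the title of the series. The sources used here do not give strain, sex, age, the way the seizure was induced, or whether a replicate is a single animal or a pool, and the spread between replicates may therefore be technical. Both arms were chosen by their levels in these libraries and their fold changes between SE and CON, so every difference between these groups is given below as a description, with no test.

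A miRNA hairpin is cut by Drosha and Dicer into a short duplex. A single strand of the duplex is usually kept by an Argonaute protein and guides it to messenger RNAs through the seed, bases 2 to 8, while the other strand is mostly degraded. Which arm prevails, and by how much, differs from hairpin to hairpin.

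The mature arms are shown with the seed in capitals, and the hairpin with both mature arms in capitals, because the results below turn on reads being assigned to each arm. Sequences are from RefSeq on build GRCm38.p6, written 5′ to 3′.
miR-872-5p: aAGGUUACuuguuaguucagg
miR-872-3p: uGAACUAUugcaguagccuccu
mir-872 hairpin: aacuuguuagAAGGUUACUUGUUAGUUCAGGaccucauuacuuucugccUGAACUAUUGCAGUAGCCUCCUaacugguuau
The 81-base hairpin lies on the plus strand at chr4:94665157-94665237 (GRCm38). In the GENCODE M21 annotation it is inside intron 13 of Ift74, on the same strand and 2490 bases from the upstream exon. Ift74 encodes an intraflagellar transport protein of cilia, and its messenger RNA was not measured here. The 5p arm covers bases 11 to 31 of the hairpin and the 3p arm bases 50 to 71, with 18 bases between them. RNAfold paired 17 of the 21 bases of the 5p arm with bases of the 3p arm. Of the 1679 mature miRNAs in the sequence table, 0 others shared the seed of miR-872-5p and 0 others shared that of miR-872-3p. No other mature miRNA in it matched more than 13 bases of either arm in an ungapped comparison with offsets of up to 4 bases. The nearest other hairpin of chromosome 4 in the table, Mir6402, lay 3291794 bases away.

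The libraries held 6016533 to 10845434 miRNA reads in SE and 5482407 to 6504884 in CON, and levels are given in RPM, the reads of a miRNA scaled by the authors to a fixed total per library. Pooled over libraries, SE held 23552211 miRNA reads and CON 17581171. Counts of pooled reads below are not scaled for this difference in depth. Of the lists of miRNAs of other cells, the neuronal one summed to 45153 to 49871 RPM in SE and 46656 to 51218 RPM in CON libraries. It holds 8 miRNAs, led by miR-7a-5p, with miR-124-3p and miR-9-5p among them. The red cell list summed to 16.8 to 32.2 RPM in SE and 19.1 to 29.5 RPM in CON libraries, with miR-144-3p and miR-144-5p at 0. Its reads were nearly all of miR-486a-5p/486b-5p, pooled 620 in SE and 449 in CON, against 0 and 6 of miR-451a. The liver list, led by miR-122-5p, ran from 105 to 126 RPM in SE and from 166 to 255 RPM in CON libraries without overlap. The list taken here for astrocytes holds miR-143-3p, miR-29a-3p and miR-449a-5p. It did not overlap either, at 7918 to 8796 RPM in SE and 9151 to 13028 RPM in CON libraries. Most of its reads were of miR-29a-3p, pooled 161384 in SE and 174529 in CON, against 37062 and 32059 of miR-143-3p. Being unscaled, these pooled reads compare miRNAs within a group and do not give the direction between SE and CON. Whether the listed miRNAs came from the cells that name each list was not tested. The part of these lists in the miR-872 values was not tested either. Directions are those of the column names.

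In the authors' deposited RPM table both the SE means and the CON means descend from row to row, with 0 exceptions in either, so the CON values cannot all belong to the names beside them. The CON rows were put back under their names through the base means that the authors deposited with their fold changes, each a mean of size-factor-normalized reads over the 6 libraries. The reads of all 687 miRNAs with a CON total above 0 were found, to a largest relative difference of 2.14e-09. For miR-872-5p the SE libraries alone summed to 616.3 normalized reads, and 6 times the deposited base mean was also 616.3, leaving 1.90e-07 for CON. The remainder was 1.93e-07 when the SE size factors were fitted without miR-872-5p, from 73 other miRNAs. In both fits these miRNAs came from those with a strongly negative deposited log2 fold change. A single CON read would have raised the base mean by at least 0.161. For miR-872-3p the SE libraries summed to 215.5 of 452.4 normalized reads, and the other 236.9 had 1 candidate row, which stood beside the name let-7b-3p in the deposited table. The CON reads deposited beside the name miR-872-5p, 168, 148 and 250, went to miR-487b-3p, a miRNA of the imprinted Dlk1-Dio3 locus. Those deposited beside miR-872-3p went to miR-3093-3p.

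**Figure D1:**
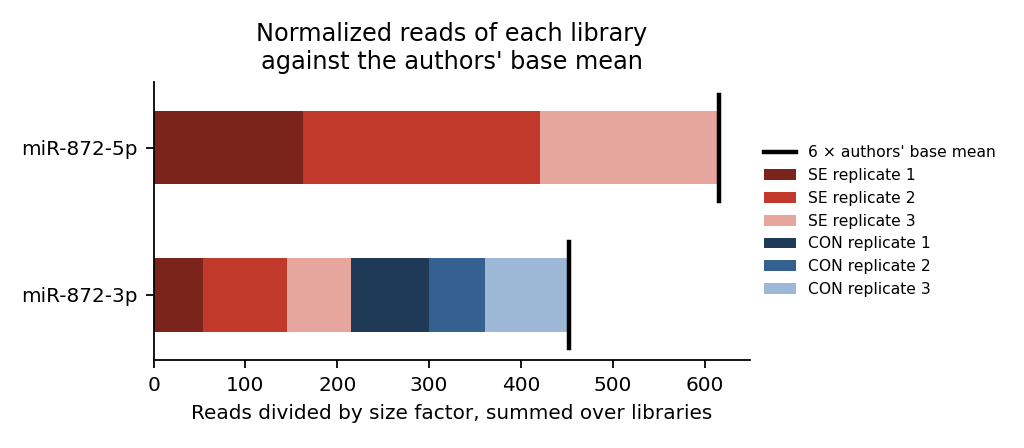
Horizontal bars give the reads of each arm divided by the library's size factor, stacked over the 3 SE and 3 CON libraries, and the black line marks 6 times the deposited base mean. The SE libraries fill the whole of miR-872-5p, 616.3 normalized reads, while miR-872-3p takes 215.5 from SE and 236.9 from CON libraries.

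miR-872-5p, the more abundant arm in SE vesicles, was present in every SE library and had no reads in any CON library. Its level was 26.6, 37.1 and 26.2 RPM in SE replicates 1, 2 and 3, from 288, 223 and 175 reads, against 0, 0 and 0 RPM in CON replicates 1, 2 and 3. The groups did not overlap, and SE replicate 2 was the highest library. The SE level averaged 29.9 RPM ± 6.19 (SD, n = 3), and ranked 211th, 174th and 199th among the 616, 582 and 583 miRNAs detected in SE replicates 1, 2 and 3. A count of 0 allows up to 0.536, 0.547 and 0.461 RPM in CON replicates 1, 2 and 3, the level of 3 reads, for counting error only. The lowest value above 0 in each library stood for 2 reads, so a 0 may hide a single read. Pooled, 686 SE reads against a floor of 3 reads over the CON group put miR-872-5p at least 170.69-fold higher in SE vesicles. That bound takes each CON 0 as no reads. It allows for counting error in the pooled CON reads only. Counting error in the 686 SE reads and the spread between libraries are left out. With the CON values under the names as deposited, its log2 fold change was -0.089 in place of 4.93, so the difference rests on the names being put back. The deposited files do not show whether reads of miR-872-5p were lost from the CON libraries in the authors' counting or merging of libraries. This was not tested, and each CON 0 of this arm means only that the authors' values hold no reads for it.

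miR-872-3p, the partner arm, was present in all 6 libraries, with overlapping levels in SE and CON. Its level was 8.76, 13.1 and 9.42 RPM in SE replicates 1, 2 and 3, from 95, 79 and 63 reads, against 13.8, 9.12 and 14.6 RPM in CON replicates 1, 2 and 3, from 77, 50 and 95 reads. The groups overlapped: SE replicate 2 lay above CON replicate 2 and below the other CON libraries. The mean was 10.4 RPM ± 2.36 in SE and 12.5 RPM ± 2.95 in CON vesicles (SD, n = 3 each). On the log2(RPM + 1) scale the fold change, SE over CON, was -0.23 with a standard error of 0.29 in limma, against a median of -0.07 over the 290 miRNAs tested, those that averaged 10 RPM or more over the libraries. Of these 290, the SE libraries lay wholly above the CON libraries for 1.38%, among them miR-872-5p, and wholly below for 13.4%.

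**Figure D2:**
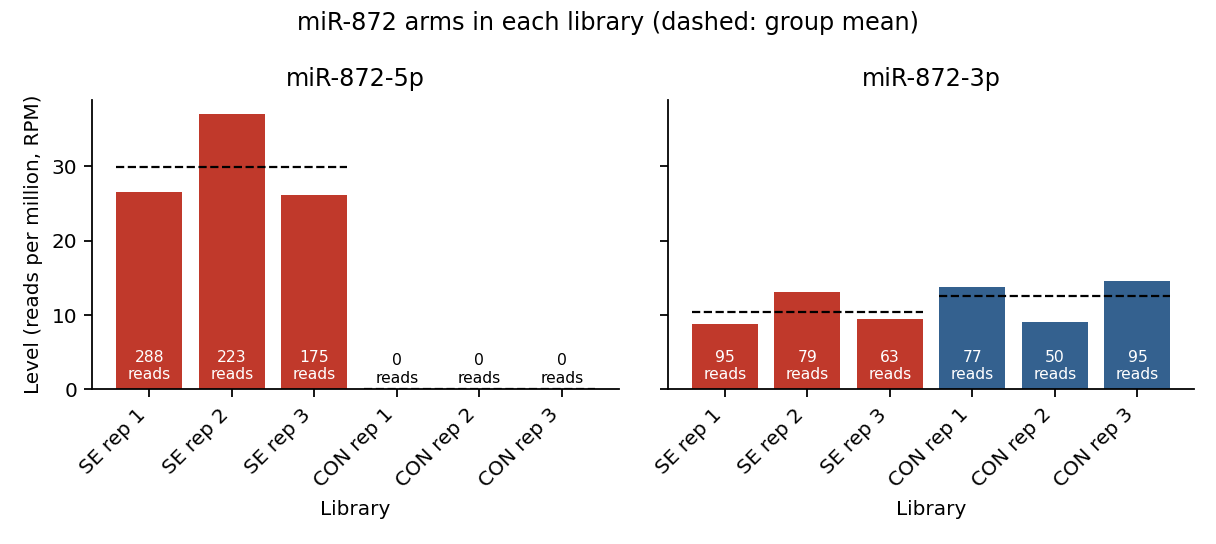
Bars show the level of each arm in RPM in the 3 SE and 3 CON libraries, with the reads behind each bar written in it and the group mean dashed. miR-872-5p lies between 26.2 and 37.1 RPM in SE libraries and at 0 in CON libraries, while miR-872-3p lies between 8.76 and 13.1 RPM in SE and between 9.12 and 14.6 RPM in CON libraries.

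The authors' deposited table of fold changes shows the same contrast between the arms. The direction of its contrast is not named. By the column names of the RPM values its sign runs the other way, so that a negative value means more in SE libraries. Every direction given here rests on those column names, and whether SE and CON were exchanged in them was not tested. The authors' deposited table gives a log2 fold change of -10.00 with a standard error of 1.24 for miR-872-5p and 0.15 with a standard error of 0.37 for miR-872-3p. At an adjusted p under 0.05 the authors' deposited table calls 1.04% of its 772 miRNAs, and of the arms it calls miR-872-5p alone. These values chose the arms and share their reads with the levels above. The deposited fold changes also picked the miRNAs that fixed the SE size factors, so they are no separate evidence for the levels. limma on log2(RPM + 1) called 1.03% of the 290 miRNAs tested at an adjusted p under 0.05.

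Over the SE libraries the ratio of the arms varied less than the level of either arm. The 5p arm took 75.2% of the 383 miR-872 reads in SE replicate 1, with an exact Clopper-Pearson 95% interval of 70.6 to 79.4%. It took 73.8% of 302 reads in SE replicate 2 (68.5 to 78.7%) and 73.5% of 238 reads in SE replicate 3 (67.4 to 79.0%). These intervals overlap one another, and the share averaged 74.2% ± 0.886 (SD, n = 3). The coefficient of variation over SE libraries was 20.7% for the level of miR-872-5p and 22.6% for that of miR-872-3p. Both arms were highest in SE replicate 2. From SE replicate 1 to SE replicate 3, miR-872-5p went from 26.6 to 26.2 RPM and miR-872-3p from 8.76 to 9.42 RPM. There were 3.03, 2.82 and 2.78 reads of the 5p arm for each read of the 3p arm in SE replicates 1, 2 and 3, a mean of 2.88 ± 0.135 (SD, n = 3).

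In the CON libraries, as counted by the authors, every miR-872 read was on the 3p arm. The share of 0 rests on the same CON zeros of miR-872-5p, with the same limit that a loss of its reads before deposit was not tested. The 5p arm had 0 of 77 reads in CON replicate 1, 0 of 50 in CON replicate 2 and 0 of 95 in CON replicate 3, with exact upper bounds of 4.68%, 7.11% and 3.81%. By the level of 3 reads, these counts of 0 allow a share of up to 3.90%, 6% and 3.16%. Pooled over libraries, the 5p arm had 686 of 923 reads in SE, a share of 74.3% with an exact interval of 71.4 to 77.1%, and 0 of 222 reads in CON, with an exact upper bound of 1.65%. The intervals cover counting error only. Both arms together summed to 40.4 RPM ± 8.52 in SE and 12.5 RPM ± 2.95 in CON vesicles (SD, n = 3 each), and the whole of the CON sum is miR-872-3p.

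**Figure D3:**
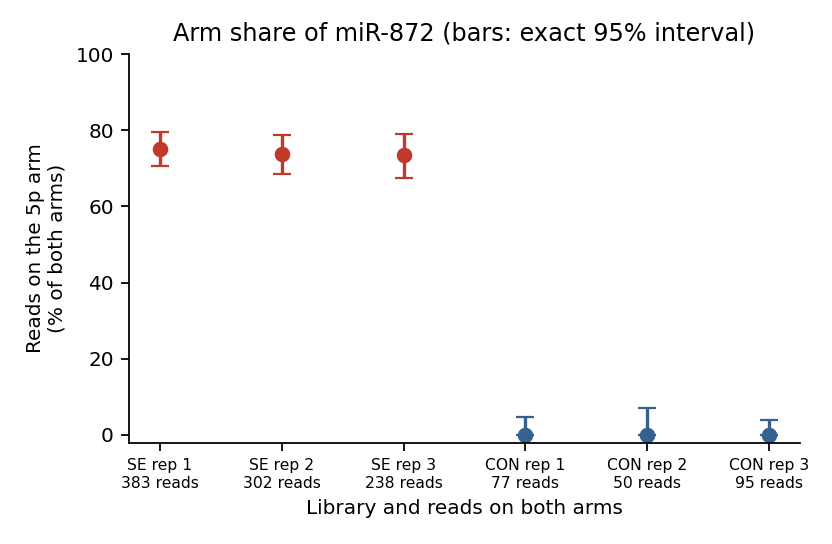
Points give the reads on the 5p arm as a percentage of the reads on both arms of miR-872 in each library, bars the exact 95% interval, and the reads on both arms stand under each library. The 3 SE libraries sit between 73.5 and 75.2% and the 3 CON libraries at 0.

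The arm ratio was set beside that of the other hairpins with both arms named that averaged 10 RPM or more over both arms, 180 in all. As log2 of 5p over 3p RPM with 1 RPM added to each, miR-872 averaged 1.44 ± 0.06 in SE and -3.73 ± 0.34 in CON vesicles (SD, n = 3 each), a difference, SE minus CON, of 5.17. The median size of the difference over the 180 hairpins was 0.26, and the largest among the other 179 was 2.02. Ratios did not overlap between the groups for 18 hairpins: 6.67% of all were wholly higher in SE, miR-872 among them, and 3.33% were wholly lower. With a single library left out, 30 to 46 of 178 to 180 hairpins did not overlap, since fewer libraries meet that condition more often. The arm with more pooled reads changed between the groups for 3 hairpins: miR-872, miR-329 and miR-667. In miR-329 the 5p arm took 54.7% of pooled reads in SE and 48.0% in CON vesicles, and in miR-667 it took 50.6% in SE and 46.5% in CON vesicles, each close to an even split with overlapping ratios. miR-872 was the 1 hairpin of the 180 whose more abundant arm in a group had no reads in the other group.

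The hairpins next to miR-872 in size of difference differed from it in kind. miR-155, from an inflammation-induced gene, had a difference of -2.02, with 0 reads of its 3p arm in either group, so this value follows the level of its 5p arm alone. miR-3093 had -1.68 and miR-1224, a mirtron released by splicing, had 1.66, with overlapping ratios in both. In miR-21a, whose 5p arm is induced in reactive glia, the 5p arm took 100% of 806 pooled reads in SE and 92.6% of pooled reads in CON vesicles, from 2077 reads of the 5p arm and 167 of the 3p arm in CON. miR-700 had 42 reads of its 5p arm in SE and 0 in CON, beside 834 and 765 reads of its 3p arm in SE and CON. In both miR-21a and miR-700, the arm that was absent from a group was the minor one. At the lower end miR-335, from an intron of the imprinted gene Mest, had -1.21 and miR-26b had -0.91, with the 5p arm at over 99% of pooled reads in both groups. In pooled share, miR-708 came next to miR-872, with 49.7% on the 5p arm in SE and 37.6% in CON vesicles and overlapping ratios.

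**Figure D4:**
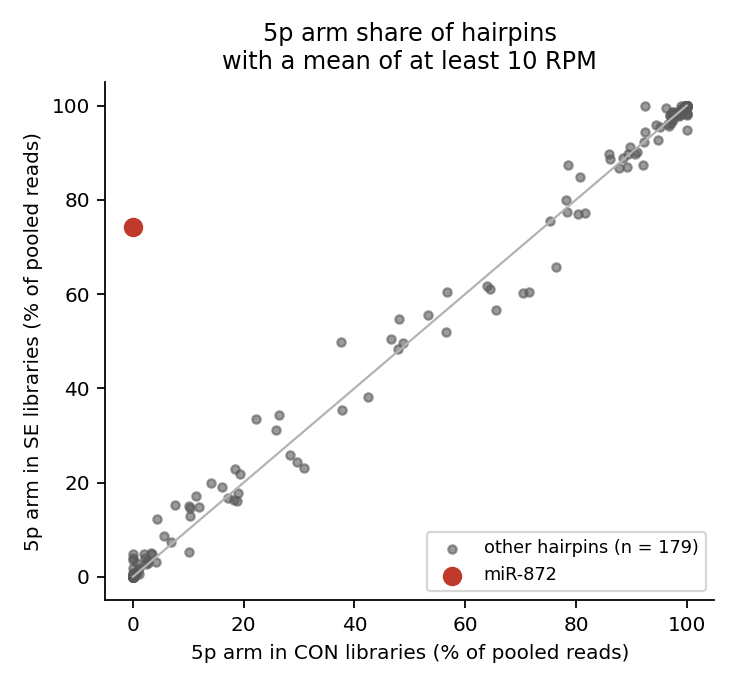
Each point is a hairpin, with the share of pooled reads on its 5p arm in CON libraries on the horizontal axis and in SE libraries on the vertical axis, both in percent. The grey line marks equal shares. miR-872 stands at 0 in CON and 74.3% in SE, while the other 179 hairpins lie along the line, the farthest of them being miR-708 at 37.6% in CON and 49.7% in SE.

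Presence in a whole group and absence from the other was rare among miRNAs. Reads in all 3 SE libraries and in no CON library were found for 0.387% of the 775 miRNAs, which are miR-872-5p, miR-7004-5p and miR-3057-3p. miR-7004-5p had 43 pooled SE reads and miR-3057-3p had 19, against 686 for miR-872-5p. The reverse pattern, reads in all 3 CON libraries and in no SE library, was found for 0.258%, which are miR-21a-3p with 167 pooled CON reads and miR-3080-5p with 38. With a single library left out, 5 to 10 miRNAs had reads in all remaining SE and in no remaining CON library. Of the 385 miRNAs with at least 100 pooled SE reads, miR-872-5p was the 1 with none in CON, and the next highest at 0 in CON, miR-202-3p and miR-6987-5p, had 78 pooled SE reads each, all in SE replicate 1. Among the 196 miRNAs with at least as many pooled SE reads as miR-872-5p, the lowest pooled CON count other than its own was 378, for miR-146a-5p. No miRNA at 0 in SE had as many pooled CON reads as miR-872-5p had in SE: the highest was miR-21a-3p, at 167, and it matched 7 of the 21 bases of miR-872-5p.

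**Figure D5:**
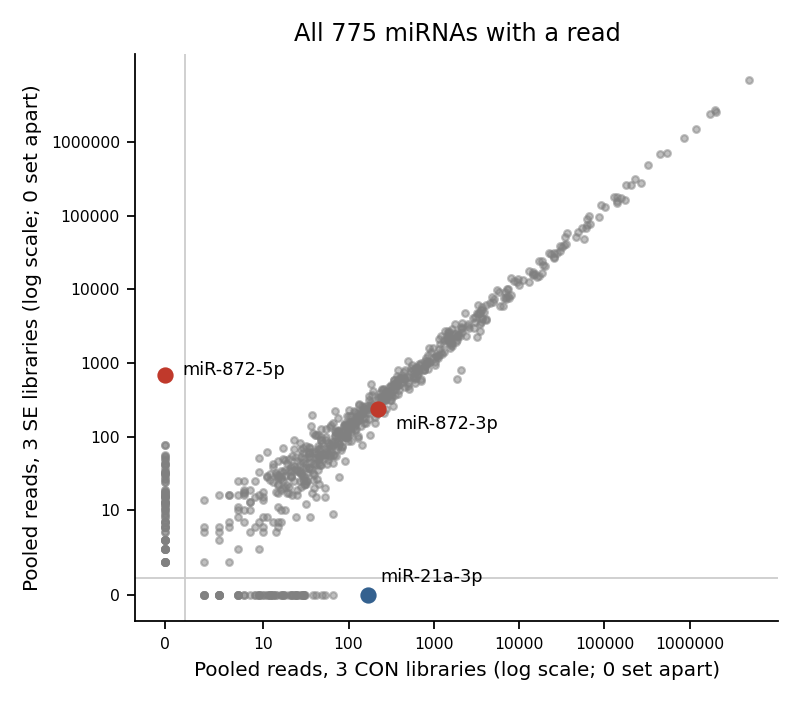
Each point is 1 of the 775 miRNAs with a read, with its pooled reads over the 3 CON libraries on the horizontal axis and over the 3 SE libraries on the vertical axis, both on a log scale with 0 set apart beyond the grey lines. miR-872-5p stands at 686 SE and 0 CON reads, above the other miRNAs without CON reads, and miR-872-3p at 237 SE and 222 CON reads lies among the other miRNAs.

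The miRNAs whose profile over the 6 libraries was most like that of each arm were taken from 288 others that averaged 10 RPM or more, by Pearson's r of log2(RPM + 1). All 6 points share the depth and composition of their libraries, and r for miR-872-5p mostly reflects the step between the groups. For miR-872-5p they were miR-669c-5p, a member of the Sfmbt2 cluster, with r = 0.96, miR-1198-5p with r = 0.83 and miR-146a-5p, a product of NF-kB signalling, with r = 0.78. Their steps were far smaller: miR-669c-5p averaged 262 RPM ± 5.33 in SE and 235 RPM ± 4.80 in CON vesicles, and miR-146a-5p averaged 33.5 RPM ± 3.69 in SE and 21.6 RPM ± 7.20 in CON vesicles (SD, n = 3 each). For miR-872-3p they were miR-5121 with r = 0.89, the haematopoietic miR-142a-5p with r = 0.88 and let-7f-5p with r = 0.88. miR-142a-5p averaged 35.2 RPM ± 5.19 in SE and 43.7 RPM ± 8.96 in CON vesicles (SD, n = 3 each). No miRNA was among the nearest 3 of both arms.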

How the data were processed

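Small RNA from brain vesicles was sequenced with the QIAseq miRNA kit, per the labels' protocols. The authors' deposited RPM values scale reads to the total over the listed miRNAs. Per the submitters' processing notes the build was mm9 and DESeq2 was used. The aligner and counter are not given in the sources used here. Per the file headers, the authors' deposited table holds base means (a signal of normalized reads), log2 fold changes, a Wald score and p-values.

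Reads were recovered as whole multiples, within 0.01, of the RPM worth of 1 read, taking each library's lowest value as 2 reads: 100% of values came out whole. CON rows were put back through the base means with a relative tolerance of 1e-05. In 597 cases there was 1 candidate, and in 90 there were several within that tolerance, of which the nearest was taken. The match and limma were tested on simulated data. limma 3.58.1 (R 4.3.3) was run with trend on log2(RPM + 1) for miRNAs that averaged 10 RPM or more, two-sided with Benjamini-Hochberg adjustment. The deposited unit is RPM, so limma on the log scale was the main test, and limma-voom on the recovered reads was an added alternative, which called 3 miRNAs. Python 3.11.15, numpy 2.4.6, pandas 2.3.3, scipy 1.17.1, matplotlib 3.10.9 and RNAfold 2.7.2 were also used.

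The arms, lists and comparisons were chosen with earlier results of these data known. Named miRNAs are both arms, up to 5 seen in all libraries of a single group, the 3 most like each arm, up to 4 hairpins on each side with the largest difference in arm ratio, and marker lists as sums. miR-329, miR-667, miR-708, miR-202-3p, miR-6987-5p, miR-487b-3p, miR-3093-3p and let-7b-3p were named after their values were seen. Marker lists for oligodendrocytes, leukocytes, endothelium and choroid plexus overlapped between SE and CON libraries. Alternatives were other pseudocounts, filters and scalings, the replicate number as a block, and each library left out.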

Additional observations from a re-analysis of the deposited data

How the results depend on the processing

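The difference of miR-872-5p kept its direction under each alternative listed here other than the row names as deposited, but its size depends on the offset because CON is at 0. The filter of 50 RPM removed both arms and gives no value for them. The log2 fold change of 4.93 was 5.91 with 0.5 RPM added, 2.79 with 5 RPM, 3.30 with quantile normalization and 8.42 by limma-voom, and 4.77 to 5.02 with a library left out. The arm ratio difference of 5.17 was 6.15 with 0.5 RPM and 2.97 with 5 RPM, and 5.05 to 5.36 with a library left out. For miR-872-3p the log2 fold change ran from -0.43 to -0.12 with a library left out and was -0.14 with median-of-ratios scaling. The 5p share in SE ran from 73.7 to 74.5% with a library left out, and that in CON stayed at 0%.

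With CON values read by the row names in the file, an alternative chosen after the data were examined, the log2 fold change was -0.089 for miR-872-5p and 0.81 for miR-872-3p, the arm ratio difference -0.90 and the CON 5p share 78.4%. Then 3 hairpins had ratios that did not overlap, 0 miRNAs had reads in all SE and no CON libraries, and limma called 0 of 289, with 2 at an unadjusted p under 0.05.

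limma called 3 of 290 miRNAs, 3 to 6 with a library left out: 6 without CON replicate 2 and 5 without CON replicate 3. Without a filter, 31 of 406 hairpins had ratios that did not overlap, against 18 of 180. With the filter and a library left out, 30 to 46 of 178 to 180 hairpins did not overlap. The count of miRNAs in SE libraries alone, 3, was 5 to 10 with a library left out. Leaving out a library loosens both conditions by construction. With the replicate number as a block limma called 3 miRNAs and the log2 fold changes stayed at 4.93 and -0.23. Same-numbered libraries deviated from their group means with correlations of -0.42, -0.25 and 0.04. For differently numbered libraries the correlations ran from -0.20 to 0.42. With 3 libraries per group, these values cannot decide whether the numbers pair them. Arms with few reads are limited by depth: a CON library held 50 to 95 miR-872 reads.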
